A study of Homo sapiens with 3 samples.

Results

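The genes described here are the 4 inhibitor of DNA binding genes (ID1, ID2, ID3 and ID4) and 6 genes that send or restrain TGF-beta and BMP signals (the ligands BMP4, TGFB1 and TGFB2, the inhibitory SMADs SMAD6 and SMAD7, and the pseudoreceptor BAMBI). They were chosen by name, with earlier results of these data known, and all 10 were found among the 58735 genes of the count tables. The cells were A549, a widely used line from a human lung adenocarcinoma, and RNA-seq gave 3 libraries: a control, a first DDX24 knockdown (here DDX24-sh1) and a second DDX24 knockdown (DDX24-sh2). Per the study's methods, stable lines were made with lentiviral pLKO.1 vectors and kept under puromycin, and all 3 lines grew in F12K medium with serum. The methods describe the control as empty vector and a figure legend as a control shRNA, and which of these the library holds is not known. The study asked what loss of DDX24, a DEAD-box RNA helicase, does to these cells.

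TGF-beta and BMP ligands bind pairs of serine/threonine kinase receptors, which phosphorylate receptor-activated SMADs. These join SMAD4, enter the nucleus and switch on target genes. Among the targets are the brakes of the pathway itself: SMAD6 and SMAD7 block receptors and SMADs from inside the cell, and BAMBI resembles a receptor but lacks the kinase. The ID genes are classical BMP targets. ID proteins have a helix-loop-helix but no DNA-binding basic region, so they hold E proteins in pairs that cannot bind DNA. In epithelial cells this family is known for keeping cells proliferating and undifferentiated, and TGF-beta for epithelial-mesenchymal transition.

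The coding stretch of ID1 best matched by the other ID genes is shown because it holds the helix-loop-helix that defines the family. Reads could also only be confused between members where they match. Its length was set at 120 bases, and the coding sequences of GENCODE 29 were compared in frame without gaps. The window of ID1 with the most matching bases, summed over ID2, ID3 and ID4, was taken. It lies within coding exon sequence on GRCh38. Capitals mark the 68 bases that are identical in all 4 genes.
ID1 (chr20:31605586-31605705, plus strand): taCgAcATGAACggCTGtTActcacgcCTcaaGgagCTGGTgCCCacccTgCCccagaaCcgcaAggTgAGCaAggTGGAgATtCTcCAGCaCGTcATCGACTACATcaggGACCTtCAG
ID2 (chr2:8682274-8682393, plus strand): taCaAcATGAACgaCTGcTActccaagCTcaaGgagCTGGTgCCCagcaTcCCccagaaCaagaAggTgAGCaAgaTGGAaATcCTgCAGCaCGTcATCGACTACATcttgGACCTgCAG
ID3 (chr1:23559184-23559303, minus strand): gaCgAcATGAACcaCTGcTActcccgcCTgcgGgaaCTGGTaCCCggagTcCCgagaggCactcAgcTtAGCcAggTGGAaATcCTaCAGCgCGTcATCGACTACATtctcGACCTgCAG
ID4 (chr6:19837950-19838069, plus strand): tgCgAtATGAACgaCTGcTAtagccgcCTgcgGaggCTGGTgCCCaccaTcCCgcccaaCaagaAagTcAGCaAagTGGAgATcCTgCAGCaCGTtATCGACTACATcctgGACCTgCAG
Within this stretch ID1 and ID2 were the closest pair, with 100 of 120 bases identical (83.3%), and ID1 and ID3 the most distant, with 83 (69.2%). Across the whole messenger RNAs the longest identical run of any pair was 21 bases, between ID1 and ID2.

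With 1 library per condition there is no replicate, and therefore no test and no p-value below. A log2 ratio below compares a knockdown library with the control after scaling for library size. The interval in brackets is the exact 95% interval from the counts of both libraries, which covers counting error only and not the spread between cultures. The totals were 17218884, 18337471 and 17847190 counts in control, DDX24-sh1 and DDX24-sh2, and mitochondrial genes held 4.36%, 5.13% and 7.04% of them. DDX24 itself had 2010, 637 and 765 counts, so 29.6% and 36.0% of the control level was left. Of 8 A549 marker genes, which summed to 16040, 16495 and 16259 CPM (counts per 1e6 library counts), 7 had at least 1001 counts in every library, and EPCAM was low with 32, 29 and 29 counts. KRT19 was at least 2-fold higher in both knockdown libraries (1001, 2251 and 2728 counts). Among markers of other cells, the leukocyte genes PTPRC and CD3E had 0 counts throughout, and the endothelial list summed to 0.762, 0.765 and 0.499 CPM. The leukocyte list, carried by CD14, summed to 8.14, 5.90 and 4.16 CPM and the fibroblast list to 2.23, 5.80 and 4.99 CPM, with DCN at 1, 1 and 0 counts and LUM at 27, 80 and 68. The part of these differences in the results below was not tested. The FPKM values deposited beside the counts carry the names of the knockdown libraries the other way round: over 11641 genes, multiplying FPKM by gene length and dividing by the count gave the same constant (within 1%) for 100% of genes only after the names were exchanged, against 5.33% and 5.32% as named. Here DDX24-sh1 and DDX24-sh2 mean the libraries whose counts carry those names, and which name is right is not known. A statement on both knockdown libraries does not depend on it, and a statement on a single one does.

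Levels of different genes are compared per length, as counts per kilobase of gene and per 1e6 library counts (counts per kb), with an exact 95% counting interval. In the control library ID3 was highest with 146 counts per kb (142 to 150), followed by ID1 with 117 (112 to 122) and TGFB1 with 96.7 (94.1 to 99.3). These ranked 206, 274 and 351 among all genes. TGFB2 (28.4), BAMBI (22.2), SMAD6 (19.3), SMAD7 (12.1) and ID2 (9.88) were intermediate. BMP4 had 2.62 counts per kb and ID4 only 0.400, from 16 counts. All neighbours in this order were separated by their counting intervals in the control. In DDX24-sh1 ID3 (147) and ID1 (145) could not be separated, BAMBI (24.5) stood above TGFB2 (19.6), and ID2 (10.1) above SMAD7 (8.41). In DDX24-sh2 ID1 came first with 167 counts per kb, ahead of ID3 with 131 and TGFB1 with 73.8, and ID2 (19.2), TGFB2 (18.5) and BAMBI (18.3) stood next to each other with overlapping intervals. The plot of levels shows this order, and the change of place between ID1 and ID3 per length. By counts ID3 stayed above ID1 in every library, and the intervals do not cover error in the gene lengths.

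**Figure D1:**
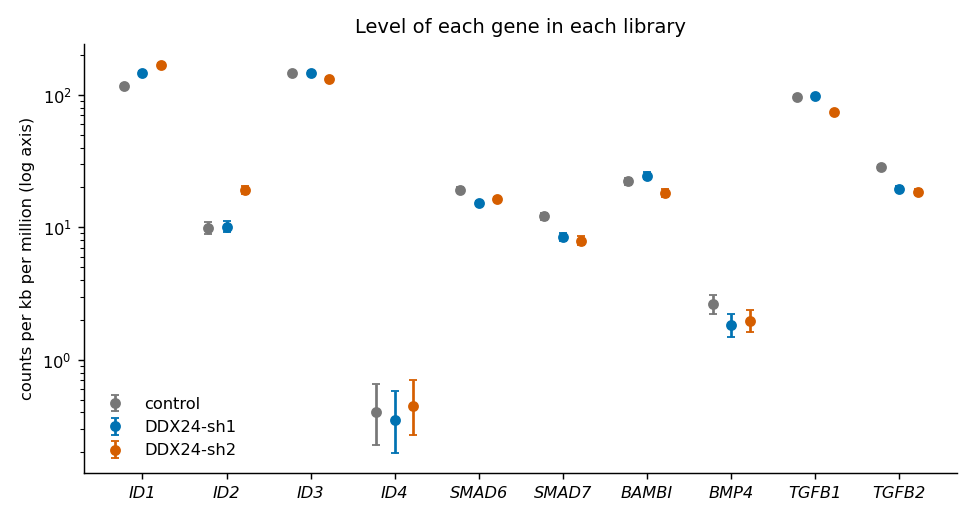
Counts per kb (log axis) for each of the 10 genes in control, DDX24-sh1 and DDX24-sh2, 1 library each, with exact 95% counting intervals as bars. ID3, ID1 and TGFB1 lie highest in every library, ID4 lies below 0.5, and ID2 is separated from the control only in DDX24-sh2.

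Of the ligands, TGFB2 was lower in both knockdown libraries, BMP4 was lower in both on few counts, and TGFB1 was lower in DDX24-sh2 alone. TGFB2 (ENSG00000092969, chromosome 1, 218346235 to 218444619, plus strand), which encodes TGF-beta 2, had 2493, 1847 and 1723 counts in control, DDX24-sh1 and DDX24-sh2. Its log2 ratios were -0.53 (-0.62 to -0.45) and -0.61 (-0.70 to -0.52), which is 69.2% and 65.4% of the control level. BMP4 (ENSG00000125378, chromosome 14, 53949736 to 53958761, minus strand), a BMP ligand, had 138, 103 and 109 counts. Its log2 ratios of -0.51 (-0.90 to -0.14) and -0.41 (-0.80 to -0.05) had intervals below 0 but wide ones. TGFB1 (ENSG00000105329, chromosome 19, 41301587 to 41353911, minus strand), which encodes TGF-beta 1, had 5345, 5784 and 4315 counts. It was close to the control in DDX24-sh1, with a log2 ratio of 0.01 (-0.04 to 0.07), and lower in DDX24-sh2 with -0.39 (-0.45 to -0.33). The TGFB1 exons share 215 of 3238 bases with HNRNPUL1 on the other strand, a gene with 9671, 10067 and 9631 counts, and whether counting used strand is not stated. TGFB2 shares 1371 of its 5151 exon bases (26.6%) with the short transcript TGFB2-OT1 on the same strand, which had 0 counts in every library. How reads in these bases were assigned is not stated, which bears on the level of TGFB2 per length. Without shared exon bases, CCDC97, TMEM91 and AC011462.1 overlap TGFB1 in position, AC013564.1 overlaps SMAD6 and AL022068.1 overlaps ID4. Per length, TGFB1 stood at 3.41, 4.98 and 3.98 times the level of TGFB2 in control, DDX24-sh1 and DDX24-sh2. Since RNA of whole cultures was measured, fewer cells that express a gene and less RNA per cell cannot be told apart.

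The inhibitory SMADs were both lower in both knockdown libraries, whereas BAMBI was higher in DDX24-sh1 and lower in DDX24-sh2. The ratios of SMAD7 were further from 0 than those of SMAD6, with overlapping intervals in DDX24-sh1. SMAD7 (ENSG00000101665, chromosome 18, 48919853 to 48952052, minus strand), which brings ubiquitin ligases to the TGF-beta receptor, had 1037, 774 and 721 counts. Its log2 ratios were -0.52 (-0.66 to -0.39) and -0.60 (-0.74 to -0.47), or 69.7% and 65.8% of the control. SMAD6 (ENSG00000137834, chromosome 15, 66702228 to 66782848, plus strand), which acts mainly against BMP signals, had 2819, 2384 and 2521 counts. Its log2 ratios were -0.34 (-0.42 to -0.26) and -0.24 (-0.32 to -0.16). BAMBI (ENSG00000095739, chromosome 10, 28677342 to 28682939, plus strand) had 877, 1039 and 763 counts. Against the control its log2 ratios were 0.14 (0.01 to 0.28) and -0.28 (-0.42 to -0.14), so the control lay between the knockdown libraries. Of 13984 genes that averaged 1 CPM or more, 2.60% had intervals beyond 0 in opposite directions like BAMBI. Per length, SMAD6 stood at 1.60, 1.81 and 2.06 times the level of SMAD7.

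The palindrome GTCTAGAC, the classical DNA element bound by SMADs, was found in 1 of 14 promoter windows of these genes and in 71 of 35116 windows of all RefSeq genes (0.202%), reading both strands from 250 bases before to 50 after each start. It is shown because it lies at the start of SMAD6, 12 bases before the RefSeq start, on the plus strand of GRCh38.p14. Capitals mark the palindrome.
SMAD6 (chr15:66702213-66702242): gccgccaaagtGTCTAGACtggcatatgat
GGCGCC, a GC-rich BMP response element, was in windows of BAMBI and BMP4 (19.2% of all windows), and CAGAC, the short SMAD box, in 9 of the 14 (45.3%). The E-box CANNTG was in 7 of the 14 (68.7%) and TGACGTCA in 0 (1.85%). A match says only that these letters stand in the window.

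Among the ID genes, ID1 was higher in both knockdown libraries, ID2 was higher in DDX24-sh2 alone, and ID3 differed by at most 0.15 on the log2 scale. ID1 (ENSG00000125968, chromosome 20, 31605283 to 31606515, plus strand) had 2459, 3279 and 3725 counts. Its log2 ratios were 0.32 (0.24 to 0.39) and 0.52 (0.44 to 0.59), which is 1.24-fold and 1.43-fold. ID2 (ENSG00000115738, chromosome 2, 8678845 to 8684453, plus strand) had 372, 408 and 763 counts. Control and DDX24-sh1 were close, with a log2 ratio of 0.03 (-0.17 to 0.24), and DDX24-sh2 stood apart with 0.95 (0.77 to 1.14), a 1.93-fold level. Of 13984 genes, 451 (3.23%) had a ratio at least as high as ID2 in DDX24-sh2. ID2 shares 38 of its 2205 exon bases with ID2-AS1 on the other strand, which had 36, 28 and 34 counts.

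ID3 (ENSG00000117318, chromosome 1, 23557918 to 23559794, minus strand) had 4476, 4835 and 4263 counts, with log2 ratios of 0.01 (-0.05 to 0.07) and -0.15 (-0.21 to -0.09). ID4 (ENSG00000172201, chromosome 6, 19837386 to 19840684, plus strand) had 16, 15 and 19 counts. Its log2 ratios of -0.17 (-1.31 to 0.92) and 0.15 (-0.87 to 1.22) had intervals that reached past 2-fold, so a difference was not detectable at this depth. Summed per length, the ID genes reached 273, 303 and 318 counts per kb. The share of ID1 in this sum was 42.8%, 48.0% and 52.6% in control, DDX24-sh1 and DDX24-sh2, that of ID3 53.4%, 48.6% and 41.3%, and that of ID2 3.62%, 3.34% and 6.02%. Thus, per length, ID3 was the leading ID transcript in the control and ID1 in DDX24-sh2. By counts alone ID3 stayed above ID1 in DDX24-sh2, with 4263 against 3725. The change of leader therefore rests on the gene lengths used, 1797 bases for ID3 and 1233 for ID1. The counting intervals do not cover error in these lengths.

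**Figure D2:**
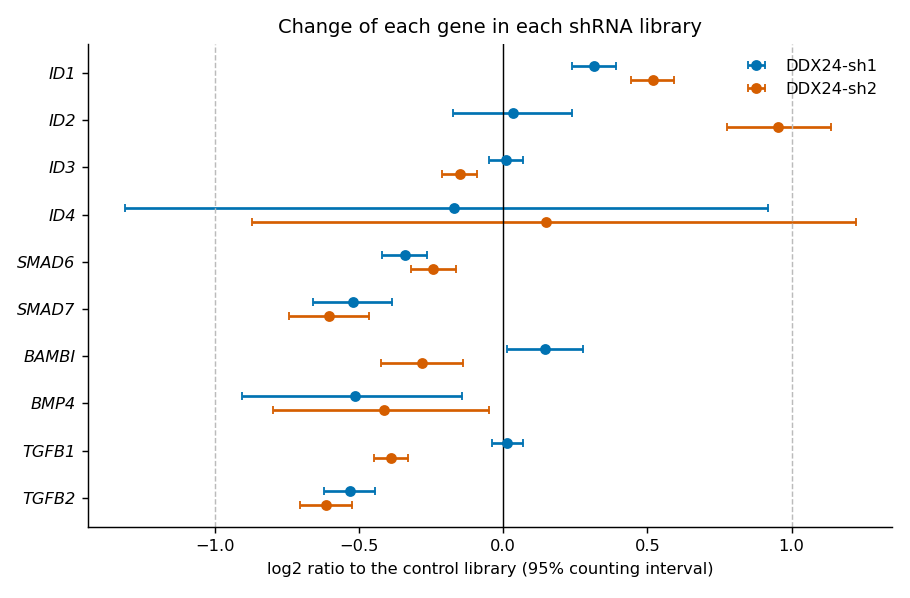
Log2 ratio to the control library for each of the 10 genes in DDX24-sh1 and DDX24-sh2, with exact 95% counting intervals as bars and dashed lines at a 2-fold difference. SMAD6, SMAD7, BMP4 and TGFB2 lie below 0 in both libraries, ID1 lies above 0 in both, and every point lies within the dashed lines.

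The ratios of the 10 genes to the control all stayed within 2-fold, and they are set beside those of all genes here. Of the 10 genes, 9 averaged 1 CPM or more and ID4, at 0.937, 0.820 and 1.05 CPM, did not. Of the 9, 0 were at least 2-fold higher in both knockdown libraries and 0 at least 2-fold lower, where 1.19% and 1.38% of all 13984 genes were. At a 1.5-fold threshold the counts were also 0 and 0, with 4.23% and 4.72% of all genes. In single libraries 0 of the 9 were 2-fold higher (2.32% of all genes with the first shRNA and 2.89% with the second) and 0 were 2-fold lower (2.27% and 3.07%). With shares this small, 0 of 9 genes is not a result about the group. In DDX24-sh1, intervals lay above 0 for 2 of the 9 (BAMBI and ID1; 23.6% of all genes) and below 0 for 4 (29.5%). In DDX24-sh2 they lay above 0 for 2 (ID1 and ID2, beside 23.6%) and below 0 for 7 (30.8%), all but ID1 and ID2. Intervals lay below 0 in both libraries for 4 of the 9 (SMAD6, SMAD7, BMP4 and TGFB2) and for 20.6% of all genes. They lay above 0 in both for 1 of the 9 (ID1) and for 14.0% of all genes. With so few genes, and because deep counts give narrow intervals, these counts are a description and do not set the group apart. The median log2 ratio of the 9 genes was 0.01 for the first and -0.28 for the second knockdown, beside -0.02 and -0.03 over all genes. Both ratios on the scatter plot share the control library and its counting error.

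**Figure D3:**
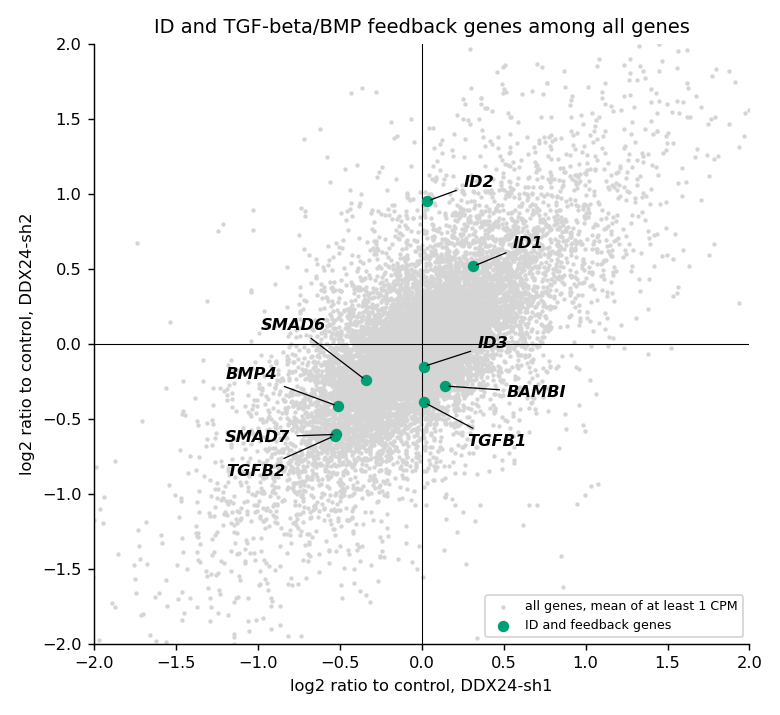
Log2 ratio to control in DDX24-sh1 (horizontal) against DDX24-sh2 (vertical) for 13984 genes averaging 1 CPM or more (grey, 103 lie outside the axes) and for 9 of the 10 genes (green). ID2 lies on the vertical axis near 1, TGFB2 and SMAD7 lie on nearly the same point, and ID1 is the one gene clearly above 0 on both axes.

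The ratio of DDX24-sh2 to DDX24-sh1 does not use the control. On this scale ID2 was the only 1 of the 9 genes beyond 1.5-fold in the higher direction (5.33% of all genes), with a log2 ratio of 0.92 (0.75 to 1.10), and 0 were beyond 1.5-fold in the lower direction (4.84%). A ratio at least as high was found for 247 of 13984 genes (1.77%). BAMBI at -0.43 (-0.56 to -0.29), TGFB1 at -0.40 (-0.46 to -0.35) and ID3 at -0.16 (-0.22 to -0.10) were lower in DDX24-sh2, and ID1 at 0.20 (0.14 to 0.27) and SMAD6 at 0.10 (0.02 to 0.18) were higher. Over all genes, intervals lay below 0 for 23.8% and above 0 for 21.0%. The 3 other genes with enough counts were not separated: SMAD7 at -0.08 (-0.23 to 0.07), TGFB2 at -0.08 (-0.18 to 0.01) and BMP4 at 0.10 (-0.30 to 0.50). DDX24 itself was higher in DDX24-sh2, by 0.28 (0.13 to 0.44).

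The rest of the pathway was described in 7 lists of 107 genes, of which 66 averaged 1 CPM or more. Of the 66, 40 were lower than the control in both knockdown libraries and 14 higher in both, while 40.2% of all genes were lower in both and 34.6% higher in both. The 14 include ENG, described below, which passed 1 CPM only through the knockdown libraries. Of the 6 signal-carrying SMADs, 5 averaged 1 CPM or more, with medians of -0.46 and -0.49. All 5 were lower in both with intervals below 0, as were 20.6% of all genes. Here too deep counts give narrow intervals, so this is a description. SMAD9 did not pass, with 1, 7 and 1 counts. SMAD3, a TGF-beta SMAD, was the most abundant here with 55.5 counts per kb in the control. It had 8640, 7275 and 8073 counts (log2 ratios -0.35 and -0.18). SMAD5, a BMP SMAD, had 1263, 1136 and 1206 counts (-0.25 and -0.15), and SMAD4, the common partner, 880, 595 and 663 (-0.66 and -0.49). SMAD4 and SMAD9 were named after their values were seen, as were TCF12, NEDD4L and GREM1 below.

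The receptor list had medians of -0.04 and -0.19. TGFBR2, the TGF-beta type II receptor, had 3879, 4892 and 4376 counts (0.23 and 0.09), and its partner TGFBR1 had 1290, 1141 and 1104 (-0.28 and -0.30). ENG, the coreceptor endoglin, had 8, 25 and 23 counts, with wide intervals around its log2 ratios of 1.35 (0.35 to 2.90) and 1.25 (0.23 to 2.81). It averaged just 1.04 CPM and passed 1 CPM only through the knockdown libraries, where it was high, so it is given as values and not as a call. The receptor medians include ENG. Without a filter on low counts the receptor median in DDX24-sh1 was 0.12. Of the other ligands, 6 of 22 passed 1 CPM, with medians of -0.38 and -0.73. The direction of the second depends on the filter: it was 0.0866 over the ligands averaging 10 CPM or more and 0 without a filter. INHBE, an activin subunit, was at least 2-fold lower in both, with 85, 43 and 33 counts (-1.05 and -1.39). INHBB, another activin subunit, had 539, 224 and 337 counts (-1.36 and -0.75), and BMP6 had 142, 108 and 91 (-0.49 and -0.71).

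Among intracellular antagonists, 9 of 13 were lower in both and 2 higher in both, beside 40.2% and 34.6% of all genes, and the medians were -0.24 and -0.26. PMEPA1, a TGF-beta-induced brake that traps SMADs, had 9410, 8136 and 8302 counts (-0.31 and -0.26), and STRAP, which works with SMAD7, had 3430, 3320 and 3432 (-0.15 and -0.08). NEDD4L, a ubiquitin ligase for activated SMADs, had 1433, 819 and 771 counts (-0.91 and -0.97). Outside the cell, the latency and antagonist list had medians of -0.03 and -0.17. FSTL3, which binds activin, had 3231, 3024 and 2777 counts (-0.20 and -0.30), LTBP3, which stores latent TGF-beta, 3398, 4736 and 3889 (0.38 and 0.11), and GREM1, a BMP antagonist, 392, 242 and 212 (-0.79 and -0.96).

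Of the other TGF-beta and BMP target genes, 8 of 15 were lower in both and 4 higher in both (40.2% and 34.6% of all genes), with medians of -0.55 and -0.37. PDGFB, a growth factor, was the only target at least 2-fold lower in both, with 248, 101 and 108 counts (-1.38 and -1.26). TGM2, a transglutaminase, was higher in both (1.10 and 0.53), on 19524, 44719 and 29891 counts. Of the E proteins and their partners, 5 of 12 passed 1 CPM, with medians of -0.01 and -0.28. Of these 5, 2 were lower in both and 1 higher in both, beside 40.2% and 34.6% of all genes. TCF12, an E protein that ID proteins bind, had 2243, 1473 and 1496 counts (-0.71 and -0.66), and the E protein TCF3 had 1403, 1252 and 1222 (-0.26 and -0.28). TWIST2, a class II factor, had 443, 545 and 355 counts (0.20 and -0.40).

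**Figure D4:**
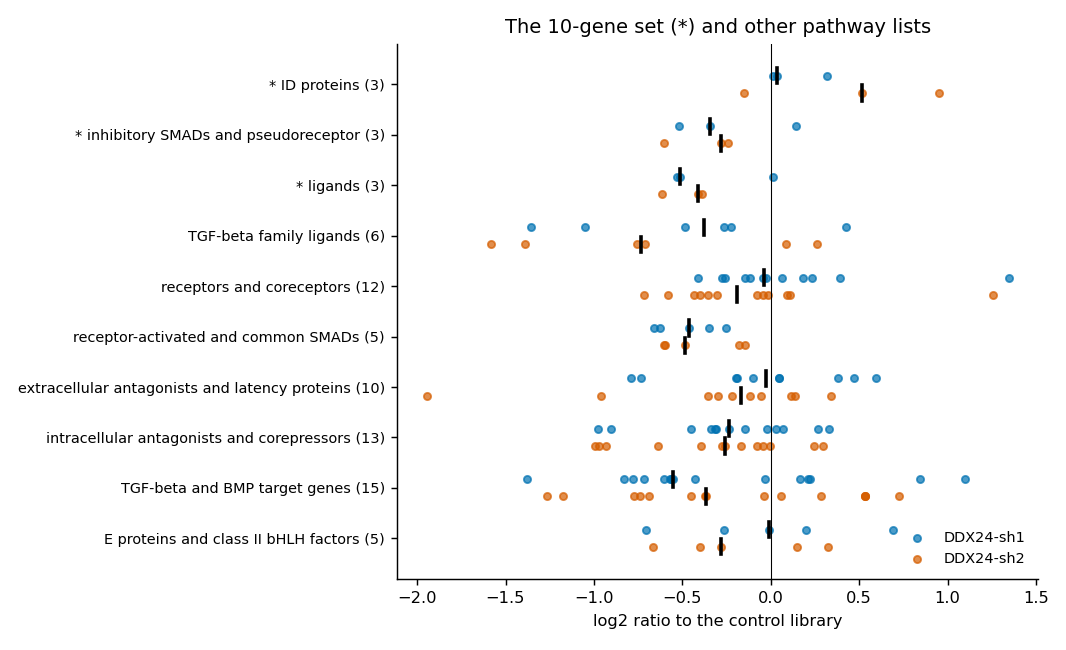
Log2 ratio to control of each gene averaging 1 CPM or more, by list, in DDX24-sh1 and DDX24-sh2, with the number of genes in brackets and black bars at the list medians. The signal-carrying SMADs are the only list with all its genes below 0 in both libraries, and no list has all its genes above 0 in both.

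Among the 10 genes, TGFB2 had the largest difference shared by both libraries, judged by the smaller of its 2 ratios. Its counting intervals overlapped those of SMAD7 and BMP4 in both libraries, so it is not separated from them in this ranking. Of the 13984 genes averaging 1 CPM or more, 1370 (9.80%) had ratios at least as low with the first shRNA and 1220 (8.72%) with the second. Among 9400 other protein-coding genes averaging 10 CPM or more, the nearest over the pair of ratios were TTC7A (distance 0.01), SMAD7 (0.01), DCUN1D2 (0.02), ACBD3 (0.02) and ELK3 (0.03). SMAD7 had ratios of -0.52 and -0.60 beside -0.53 and -0.61 for TGFB2. This likeness rests on 3 libraries, and 114 genes lay within 0.1 of TGFB2.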

How the data were processed

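RNA-seq of A549 cells was available as 3 libraries, 1 per condition, grouped by their sample titles. The authors deposited whole-number counts per gene without normalization and, separately, FPKM values, which are counts per length of gene and depth of library. The processing notes name Bowtie2 2.0.6, TopHat2 2.0.9, Cufflinks 2.1.1 and Cuffdiff 2.1.1 without roles. The counter and the strand setting are not given in the sources used here. All 58735 genes matched GENCODE 29 (GRCh38) by identifier, start and end.

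Totals were 17218884 to 18337471 counts per library. Counts were scaled by TMM in edgeR 4.0.16 (R 4.3.3), and log2 ratios come from CPM after adding a prior count of 2. Intervals are exact 95% conditional binomial (Clopper-Pearson) intervals of 2 counts, and Poisson intervals for levels. They cover counting error only, and without molecular identifiers reads need not be separate molecules. No source says that the libraries came from separate cultures. Levels per length used the gene length in the files, which covers all annotated exons, so a gene with long or rarely used exons reads low. No count model was fitted, since 1 library per condition leaves no replicate. The ratio step was tested on simulated data.

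The 10 genes and the pathway and marker lists were chosen with earlier results of these data known. The genes named were the 10, DDX24, list genes at least 2-fold different in both libraries, the 2 genes of each pathway list with the highest level per length, the 5 genes nearest to the one with the largest shared ratio, and overlapping genes. Others are marked as named after their values were seen. Some genes that this rule or the marker lists name are not reported here. Alternatives were DESeq2 1.42.0 size factors, total counts, a prior count of 0.5, FPKM with 0.1 or 1 added, other filters on CPM, a 1.5-fold threshold, each knockdown library alone and protein-coding genes only. A planned comparison of protein sequences was not run, and coding sequences were compared instead.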

Additional observations from a re-analysis of the deposited data

Results flagged for a closer look

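BAMBI, the pseudoreceptor, had a log2 ratio to control of 0.14 with the first shRNA and -0.28 with the second, and the counting intervals lay on opposite sides of 0. With 1 library per condition this difference between the shRNAs was not tested against the spread between cultures.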

How the results depend on the processing

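No paired analysis was possible because each condition has 1 library. DESeq2 size factors, total counts, a prior count of 0.5 and FPKM + 0.1 with the knockdown names exchanged left all 20 ratios of the 10 genes inside their counting intervals, and left every list median within the median half-width of its genes' intervals. No alternative brought any of the 10 genes past its fold threshold, whether 2-fold or 1.5-fold in both libraries or 2-fold in either alone.

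With FPKM under the names as given, the values of the knockdown libraries change place. With 0.1 added, ID3 in DDX24-sh2 was then 0.0245, TGFB1 in DDX24-sh2 0.0271, and BAMBI -0.27 in DDX24-sh1 and 0.16 in DDX24-sh2. A further 9 ratios of the 10 genes left their counting intervals, among them ID2 at 0.96 in DDX24-sh1 and 0.0461 in DDX24-sh2. Medians then were, for DDX24-sh1, -0.27 for the 9 genes of the 10 that averaged 1 CPM or more, -0.16 for extracellular antagonists, -0.35 for targets and -0.27 for E proteins and partners. For DDX24-sh2 they were 0.0245, -0.0143, -0.53 and 0.00267 for the same lists, -0.35 for the other ligands and -0.0233 for receptors. With 1 added, ID3 was 0.0244, TGFB1 0.0269 and BAMBI -0.26 and 0.15, in the same libraries. Medians were -0.26 (the same 9 genes), -0.14 (extracellular), -0.26 (targets) and -0.25 (E proteins) for DDX24-sh1, and 0.0244 (9 genes), -0.0134 (extracellular), 0.000712 (E proteins), -0.25 (ligands), -0.0209 (receptors) and -0.35 (SMADs) for DDX24-sh2. Over all genes, 30 were then 2-fold higher and 87 lower in both, against 167 and 193.

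Without a filter, 719 genes were 2-fold higher and 912 lower in both. Medians for DDX24-sh1 were then 0.12 for receptors, -0.40 for targets and -0.0798 for all 10 genes (ID4 included), and for DDX24-sh2 0 for ligands, 0 for E proteins and -0.33 for SMADs. At a mean of 10 CPM, 34 were higher and 105 lower, and medians were 0.0866 for ligands, -0.36 for receptors and -0.33 for SMADs in DDX24-sh2 and -0.26 for E proteins in DDX24-sh1. The filters change which genes enter each list. At 1.5-fold, 592 genes were higher and 660 lower in both. DDX24-sh1 alone gave 325 and 318 at 2-fold, and DDX24-sh2 alone 404 and 430. ID4 and BMP4 have the fewest counts and the widest intervals.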

Other observations

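Some other genes of the pathway lists, named after their values were seen, also had counting intervals on 1 side of 0 in at least 1 knockdown library. Of the 66 genes averaging 1 CPM or more, 31 had intervals below 0 in both knockdown libraries and 10 above 0 in both, beside 20.6% and 14.0% of all genes. The 10 include ENG, which passed 1 CPM only through the knockdown libraries. Because deep counts give narrow intervals, these counts are a description and do not set the lists apart. CTGF, a matricellular target of TGF-beta, had 2146, 1557 and 1005 counts in control, DDX24-sh1 and DDX24-sh2 (log2 ratios -0.56 and -1.17). The SMAD corepressor TGIF2 had 147, 79 and 77 counts (-0.98 and -0.99), and its relative in function SKIL had 1958, 1536 and 1330 (-0.45 and -0.64). BMP2, a BMP ligand, had 52, 46 and 17 counts, and its interval lay below 0 for the second shRNA alone (-0.27 and -1.58). In the higher direction, MSX2, a BMP target that encodes a homeobox factor, had 60, 117 and 106 counts (0.84 and 0.72), and BMPER, an extracellular BMP regulator, had 151, 245 and 203 (0.59 and 0.34). SMURF2, a ubiquitin ligase that works with SMAD7, had 748, 964 and 970 counts (0.27 and 0.29), and its relative WWP1 had 1033, 1392 and 1293 (0.33 and 0.24).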
